A study of Homo sapiens with 10 samples.

Results

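The vascular endothelial growth factor (VEGF) genes analysed here are the 9 genes VEGFA, VEGFB, VEGFC, PGF, FLT1, KDR, FLT4, NRP1 and NRP2. They were chosen by symbol, as 4 ligands, the 3 VEGF receptors and the 2 neuropilins of the family. VEGFD, a further ligand, is not among them. All 9 were among the 19590 genes of the table. RNA-Seq was performed in MV4-11 cells, an established human acute myeloid leukaemia (AML) line, with 4 control libraries from cells infected with a control CRISPR vector and 4 libraries from IRF8 knockout (KO) cells. IRF8, interferon regulatory factor 8, is a transcription factor of myeloid and dendritic cells. The comparison is of KO cells with control-vector cells. According to the study's methods, the KO cells were single-cell clones made by limiting dilution with lentiCRISPRv2 and puromycin selection. The methods describe 3 KO clones made with 2 guide RNAs, and no such cloning of the control cells. Effects of IRF8 loss and of cloning therefore cannot be told apart here. The labels do not say which clone each KO library is, nor whether replicates came from separate cultures, so p-values measure the spread between these libraries, which may be technical. The 2 ChIP-Seq samples of the series were not analysed here.

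VEGF ligands are secreted and bind receptor tyrosine kinases. VEGFA, the main inducer of vessel growth, binds FLT1 (VEGFR-1) and KDR (VEGFR-2), VEGFB and PGF (placental growth factor) bind FLT1, and VEGFC, the ligand of lymphatic vessel growth, binds FLT4 (VEGFR-3). NRP1 and NRP2 are co-receptors without a kinase domain that bind both VEGF ligands and class 3 semaphorins. FLT1 is also known from monocytes, and NRP1 is a marker of plasmacytoid dendritic cells as well as of vessels.

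NRP2 and VEGFB are the members with a changed level, in 1 fit or more, for which a promoter sequence was at hand. Both are shown here to give the sequence just upstream of their start sites. The sequences are RefSeq's, of build GRCh38.p14, and end at the base before the start site. An entry was matched for 6 of the 9 genes, and VEGFA, FLT4 and NRP1 are named only. NRP2 lies at chr2:205682251-205682500 and VEGFB at chr11:64234334-64234583, both on the plus strand. Capitals mark matches on either strand to the hypoxia response core, ACGTG or GCGTG, or to the IRF elements GAAANNGAAA and GGAANNGAAA.
NRP2: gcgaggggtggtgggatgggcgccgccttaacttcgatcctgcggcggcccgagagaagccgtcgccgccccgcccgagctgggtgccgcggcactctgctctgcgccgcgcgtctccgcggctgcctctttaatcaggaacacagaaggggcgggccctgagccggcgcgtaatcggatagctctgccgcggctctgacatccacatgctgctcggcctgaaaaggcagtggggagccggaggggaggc
VEGFB: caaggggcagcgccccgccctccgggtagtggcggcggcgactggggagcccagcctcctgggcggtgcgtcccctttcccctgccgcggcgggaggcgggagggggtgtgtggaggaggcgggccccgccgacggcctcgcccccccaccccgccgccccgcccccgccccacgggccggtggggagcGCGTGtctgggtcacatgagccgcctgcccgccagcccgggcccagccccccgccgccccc
The NRP2 window held no match to these letters, and the VEGFB window held 1, GCGTG at position -61 from the start site. The letters GCGTG stood once each in the windows of VEGFC at position -59 and FLT1 at position -206, and in 1 of the 2 PGF windows at position -162. This core is common, since 32.2% of the 35116 promoters of the same length held it. The IRF elements stood in none of the 7 windows of the 6 genes, against 3.02% of all promoters for GAAANNGAAA and 2.41% for GGAANNGAAA. A match is a description of the letters and not evidence of a bound site.

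Depth ranged from 39560072 to 65519047 reads per library assigned to genes. IRF8 itself was at 36891, 15192, 43016 and 22535 normalised counts in control replicates 1 to 4 and at 6377, 2401, 12903 and 7820 in the KO replicates. The transcript level of the target was thus lower in every KO library than in every control library, at 25.1% of the control mean (log2 fold change -2.11, standard error (SE) 0.51, limma adjusted p = 0.022). Without control replicate 1, control replicate 3 or KO replicate 1 its adjusted p was 0.059, 0.058 or 0.053. FLT3, 1 of the 12 myeloid leukaemia genes described below, was high, between 39931 and 66773 normalised counts. Of the vessel markers, CDH5 and EMCN were at or near 0, while others such as MMRN2 and EGFL7 were expressed.

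NRP2 was the member that differed most clearly. It was at 144, 126, 70.9 and 125 normalised counts in control replicates 1 to 4, and at 20.2, 26.8, 10.8 and 2.95 in the KO replicates. Every KO library was below every control library, and the KO mean was 13.0% of the control mean. NRP2 fell by 3.14 on the log2 scale (SE 0.59, 95% interval -4.48 to -1.80, limma adjusted p = 0.0070, exact two-sided permutation p = 0.029, the smallest that 4 against 4 libraries allow). This is an 8.82-fold lower fitted level on the log2(normalised count + 1) scale, where the added 1 shrinks changes of low genes. On recovered reads the log2 fold change was smaller in size, at -2.93 in both edgeR and DESeq2. In bulk RNA, fewer cells with the transcript and less transcript per cell cannot be told apart. The counts behind it were modest, with 524 reads over the control libraries and 58 over the KO libraries, and KO replicate 4 held only 3 reads, the limit that a count of 0 allows. Relative to the other genes of chromosome 2 the difference was -3.17.

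NRP1, the other neuropilin, was at 9779, 5798, 10611 and 6854 normalised counts in the control libraries and at 3813, 6402, 4336 and 4989 in the KO libraries. The groups overlapped through control replicate 2 and KO replicate 2. The KO mean was 59.1% of the control mean, with a log2 fold change of -0.74 (SE 0.23), which did not pass the threshold (limma adjusted p = 0.059, exact two-sided permutation p = 0.057). Within replicate numbers the KO level was 39.0% of control in replicate 1 and 40.9% in replicate 3, but 110% in replicate 2 and 72.8% in replicate 4. The size of the NRP1 difference therefore varied with the replicate number, and a fit blocked on that number gave an adjusted p of 0.066. The call depended on the setting, since NRP1 passed with DESeq2 (adjusted p = 0.014), and without control replicate 2 (0.031) or without KO replicate 2 (0.036).

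VEGFA was the ligand that varied most between replicates of 1 group. It was at 3598, 30239, 3300 and 21475 normalised counts in control replicates 1 to 4, and at 2794, 12813, 1740 and 11885 in the KO replicates. In both groups replicates 2 and 4 were far above replicates 1 and 3, by at least 5.97-fold in the controls and at least 4.25-fold in the KO libraries. Of the 13110 genes tested, 18.9% were higher in replicates 2 and 4 in both groups, but only 64 genes (0.488%) by as much as the smaller VEGFA gap, VEGFA included. Against this spread the difference between the groups was not detectable in the fit without a block (log2 fold change -0.84, SE 0.92, limma adjusted p = 0.60, exact two-sided permutation p = 0.49).

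Compared within replicate numbers, VEGFA was lower in the KO in all 4 pairs, at 77.7%, 42.4%, 52.7% and 55.3% of the same-numbered control in replicates 1 to 4. In the fit blocked on the replicate number the SE was 0.15 and VEGFA passed the threshold (95% interval -1.19 to -0.50, limma adjusted p = 0.0058). It still passed when any replicate number was left out of that fit, with an adjusted p between 0.0042 and 0.036. Both results rest on treating same-numbered libraries as pairs, although no source says what a number marks. An exact two-sided sign-flip test over the 4 pairs gave p = 0.125, the smallest that 4 pairs allow. Without the block, library weights moved the VEGFA difference to -0.06.

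**Figure D1:**
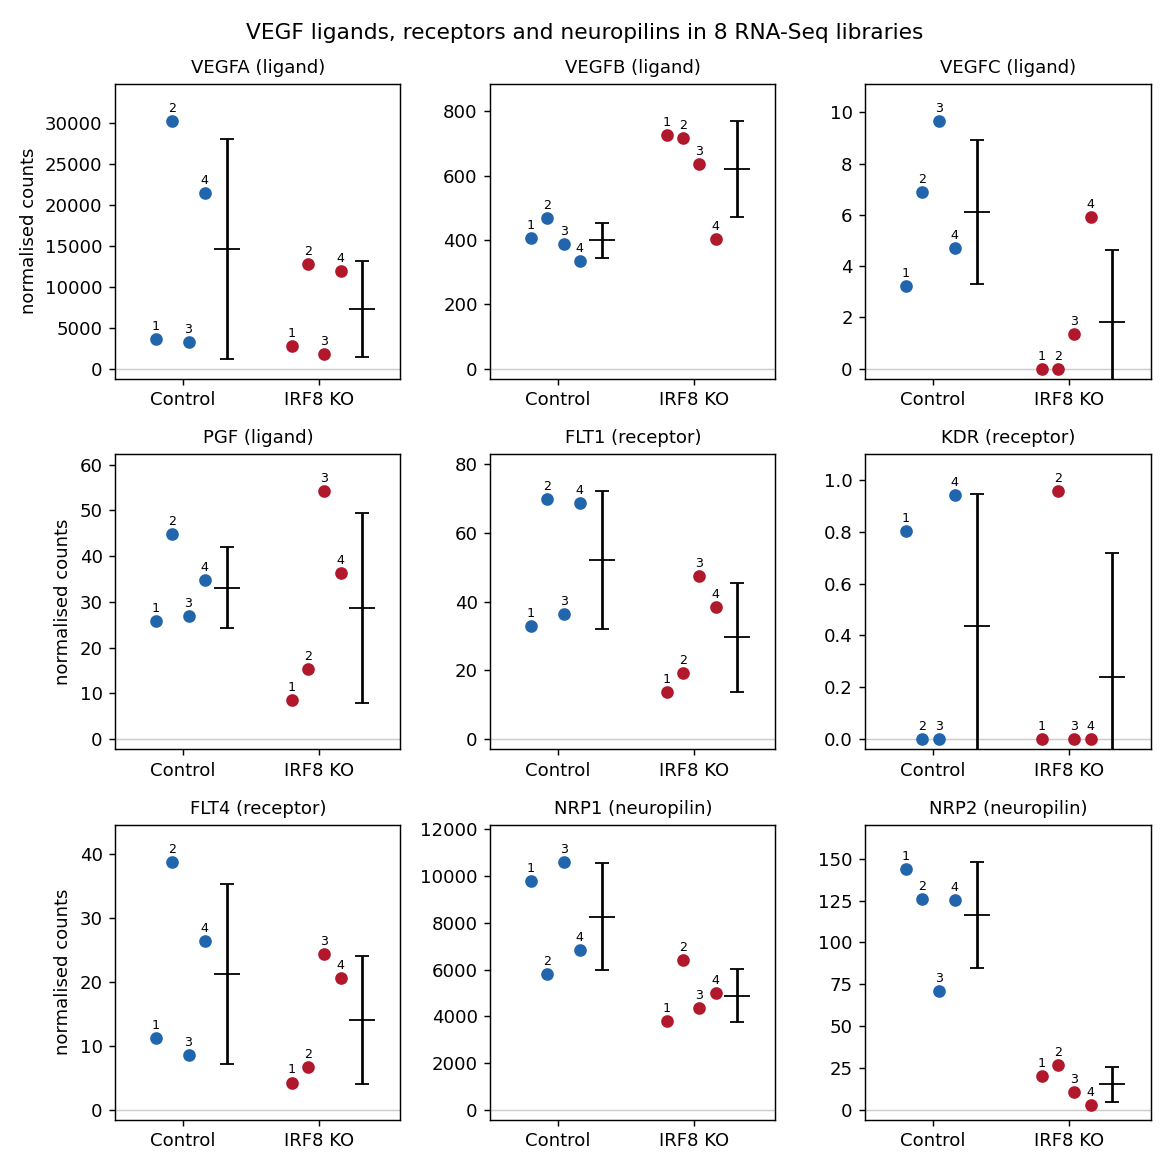
Normalised counts (vertical axes, linear, each panel with its own scale) of the 9 genes in the 4 control (blue) and 4 IRF8 KO (red) libraries, numbered by replicate. The black bars give the mean and SD, cut off below 0 for VEGFC and KDR. NRP2 does not overlap between the groups, and VEGFA is high in replicates 2 and 4 of both groups.

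VEGFB was the only tested member with a higher mean in the KO libraries. It was at 408, 468, 388 and 335 normalised counts in the control libraries and at 727, 716, 636 and 404 in the KO libraries. KO replicates 1 to 3 were above every control library, and KO replicate 4 lay inside the control range. The KO mean was 155% of the control mean, with a log2 fold change of 0.61 (SE 0.22), which did not pass without a block (limma adjusted p = 0.090, exact two-sided permutation p = 0.086). In the fit with the replicate block VEGFB passed (95% interval 0.25 to 0.97, adjusted p = 0.024), and it was higher in the KO in 4 of 4 pairs, at 178%, 153%, 164% and 121% of control. KO replicate 4 was below control replicates 1 and 2, so the 4 of 4 rests on matching by number. The blocked call was lost when replicate 1 (adjusted p = 0.077), 2 (0.059) or 3 (0.092) was left out of that fit, and held without replicate 4 (0.036). Without the block VEGFB passed with DESeq2 (adjusted p = 0.025) and without KO replicate 4 (0.021).

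The other ligands were near the lower end of what these libraries can measure. PGF was at 25.7, 44.9, 26.8 and 34.8 normalised counts in the controls and at 8.53, 15.3, 54.2 and 36.4 in the KO libraries. The KO values of PGF lay on both sides of the control range, and no difference was detectable (log2 fold change -0.48, SE 0.55, limma adjusted p = 0.61). VEGFC was at 3.22, 6.90, 9.66 and 4.71 in the controls and at 0, 0, 1.35 and 5.90 in the KO libraries. That is 26 reads over the controls and 7 over the KO libraries, under the filter of a mean of 10, so VEGFC was tested only without that filter. It did not pass there (log2 fold change -1.74, SE 0.64, limma adjusted p = 0.11). VEGFD, the other ligand of FLT4, had 0 reads in all 8 libraries.

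Of the receptors, FLT1 was at 33.0, 69.9, 36.5 and 68.7 normalised counts in the controls and at 13.9, 19.1, 47.4 and 38.4 in the KO libraries. The groups overlapped, and FLT1 did not pass (log2 fold change -0.87, SE 0.46, 95% interval -1.91 to 0.18, limma adjusted p = 0.24). FLT4 was at 11.3, 38.8, 8.59 and 26.4 in the controls and at 4.26, 6.69, 24.4 and 20.7 in the KO libraries. It did not pass either (log2 fold change -0.63, SE 0.66, adjusted p = 0.58). KDR, the main VEGFA receptor of endothelial cells, had 2 reads in all over the controls and 1 over the KO libraries, so that it was under the limit that a count of 0 allows in every library. A difference in KDR could not be detected at this depth.

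PGF, FLT1 and FLT4 shared an order of libraries. In the controls all 3 were higher in replicates 2 and 4 than in 1 and 3, by at least 1.30-fold for PGF, 1.88-fold for FLT1 and 2.34-fold for FLT4. Among the tested genes 42.0% had this order in the controls. In the KO libraries the same genes were higher in replicates 3 and 4 than in 1 and 2, by at least 2.38-fold for PGF, 2.01-fold for FLT1 and 3.09-fold for FLT4. Of the tested genes, 14.6% had that order in the KO libraries, and 1.30% with a gap of at least 2-fold. NRP2 and VEGFB had the opposite order, with KO replicates 1 and 2 above 3 and 4 by at least 1.87-fold for NRP2 and 1.12-fold for VEGFB, an order found in 15.9% of tested genes. The NRP2 values in KO replicates 3 and 4 rest on 8 and 3 reads. Read numbers were also low for the other genes in KO replicates 1 to 4. They were 4, 7, 18 and 21 for FLT4, 8, 16, 40 and 37 for PGF, and 13, 20, 35 and 39 for FLT1. The labels give no clone, guide RNA or other property that separates the KO replicates in this way.

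**Figure D2:**
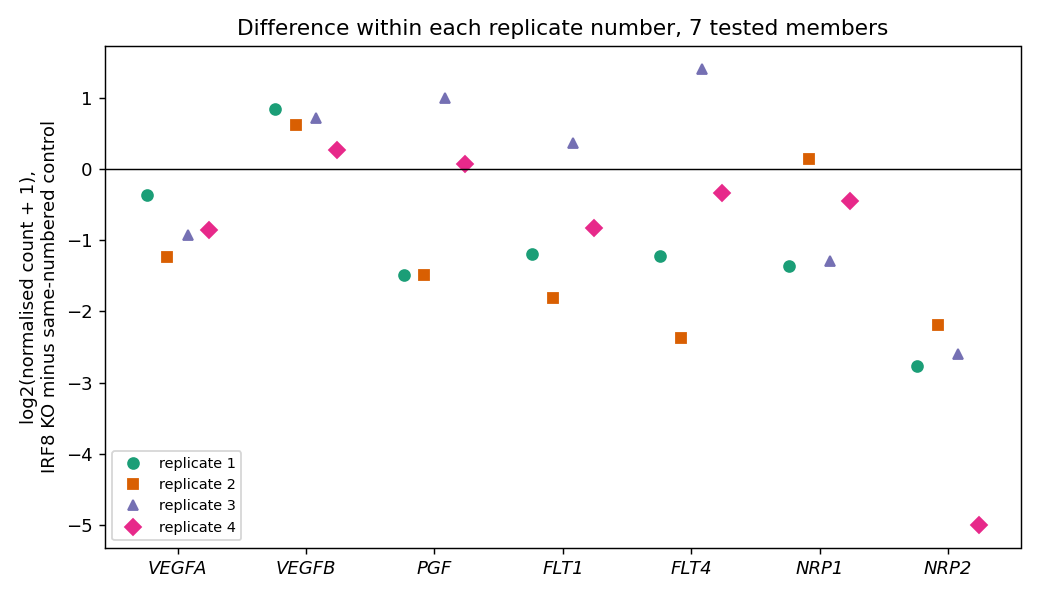
Difference on the log2(normalised count + 1) scale between the KO library and the control library of the same replicate number (vertical axis) for the 7 tested members, 1 symbol per replicate number. VEGFA and NRP2 are below 0 and VEGFB above 0 in 4 of 4 pairs, while PGF, FLT1 and FLT4 are above 0 in replicate 3.

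Over the family, 7 of 9 members reached the filter's mean of 10 and 1 passed in the fit without a block, NRP2 in the direction of lower levels. The background was high, since 18.2% of the 13110 tested genes passed in either direction, 9.56% lower and 8.65% higher. The study's own criteria ask for a raw p under 0.01 and a 2-fold change, and by these the same member passed, against 10.9% of tested genes. The values of the groups did not overlap for 1 member, against 25.3% of tested genes. With the replicate block 3 members passed, VEGFA and NRP2 lower and VEGFB higher, against 28.7% of tested genes, 14.6% lower and 14.2% higher. Across the 7 tested members the median log2 fold change was -0.74, with 6 of 7 below 0, beside a median of -0.00094 over all tested genes.

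**Figure D3:**
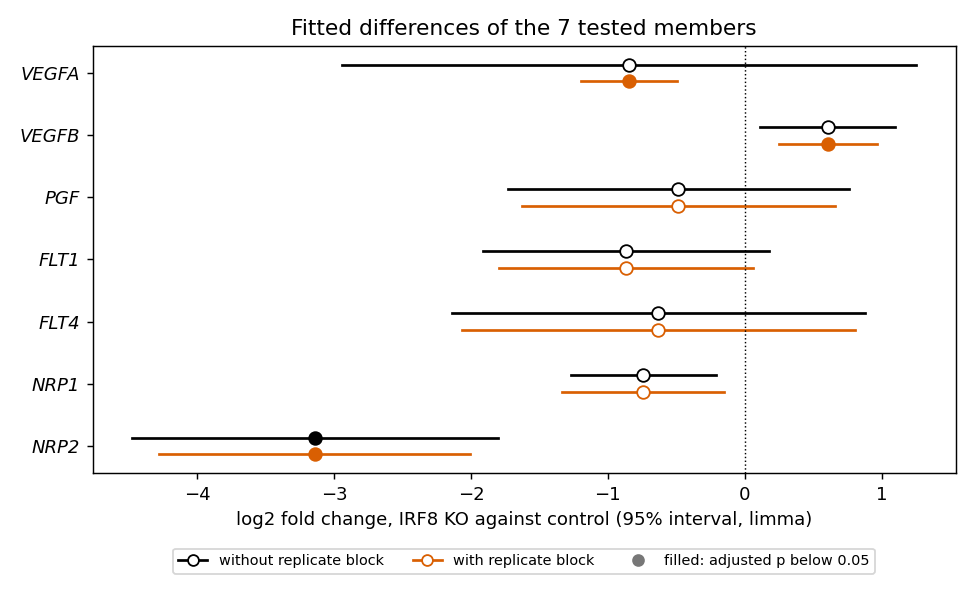
Fitted log2 fold changes (horizontal axis) of the 7 tested members with 95% intervals from limma, without (black) and with (orange) the replicate number as a block. Filled points have an adjusted p below 0.05, which holds for NRP2 in both fits and for VEGFA and VEGFB with the block.

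The tested genes whose profile over the 8 libraries was most like that of NRP2 were CSPG4, a cell surface proteoglycan, and NDRG2. The root mean square difference of their log2 profiles from that of NRP2 was 0.61 for CSPG4 and 0.62 for NDRG2. CSPG4 was between 10258 and 12521 normalised counts in the controls and between 751 and 3844 in the KO libraries. NDRG2 was between 85.4 and 137 in the controls and between 6.89 and 17.6 in the KO libraries. Both were chosen for this likeness, so their levels are a description.

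Besides VEGF, neuropilins bind class 3 semaphorins, with plexins as the signalling partners. Of 13 such genes, 11 were tested, 3 rose and 1 fell, against 8.65% and 9.56% of all tested genes. Their median log2 fold change was -0.28. SEMA3E, which binds PLXND1 without a neuropilin, was at 2.41, 0, 0 and 4.71 normalised counts in the controls and at 148, 209, 127 and 182 in the KO libraries. No control library overlapped with a KO library for SEMA3E (log2 fold change 6.29, SE 0.60, limma adjusted p = 0.00030). SEMA3F, a ligand of NRP2, rose from between 121 and 176 to between 217 and 406 normalised counts (log2 fold change 1.13, SE 0.25, adjusted p = 0.013). SEMA3D rose from between 0 and 1.88 to between 6.39 and 56.1 (log2 fold change 2.90, adjusted p = 0.024). Except for KO replicate 4, every library of SEMA3D was under 10. SEMA3D and SEMA3E, with control means of 0.95 and 1.78, reached the filter's mean of 10 only through the KO libraries. Both are among the 3 that rose. SEMA3G, another ligand of NRP2, fell from between 1319 and 1891 to between 334 and 812 (log2 fold change -1.47, adjusted p = 0.0076). The receptor partners PLXNA1 and PLXND1 did not pass (log2 fold changes -0.28 and -0.43, adjusted p = 0.81 and 0.45). PLXNA1 had the replicate order of VEGFA, at 4614, 15995, 3948 and 15515 in the controls and 4188, 12178, 3429 and 11739 in the KO libraries.

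VEGF receptors signal through phospholipase C, protein kinase C, the MAP kinases, SRC, focal adhesion kinase, PI3 kinase and AKT, most of which serve many other receptors too. Of 63 genes of this machinery 60 were tested, 5 rose and 9 fell, or 14 of 60, against 18.2% of all tested genes. Their median log2 fold change was -0.08. With the replicate block 9 rose and 13 fell, or 22 of 60, against 28.7% of all tested genes. Without control replicate 1 or 4 the count of 14 was 9. PTK2, which encodes focal adhesion kinase, was at 3524, 3788, 3642 and 4265 normalised counts in the controls and at 103, 539, 209 and 447 in the KO libraries (log2 fold change -3.82, SE 0.46, limma adjusted p = 0.00087). PLCG1, the phospholipase C that KDR activates, fell to 20.2% of the control mean (log2 fold change -2.30), and SRC to 22.7% (-2.14). NFATC2, a transcription factor downstream of calcineurin, had a log2 fold change of -1.54. PLCG1, SRC and NFATC2 lie on chromosome 20, where the median of 351 tested genes was itself -0.92. Relative to that median PLCG1 was at -1.37, SRC at -1.22 and NFATC2 at -0.62, each with an exact two-sided permutation p of 0.029. Away from chromosome 20, PIK3R5 fell (log2 fold change -1.66), and PIK3CD (-0.56), AKT1 (-0.49) and NFATC3 (-0.47) fell less than 2-fold. PRKCA, a protein kinase C, rose to 396% of the control mean (log2 fold change 1.95, adjusted p = 0.00047). PLA2G4A, which releases arachidonic acid, rose too (1.14), as did MAPK13 (0.89), PIK3CB (0.86) and PIK3R1 (0.66).

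VEGFA transcription is under the control of hypoxia inducible factors. Of 10 genes of that oxygen sensing pathway 7 were tested. Of these, 0 passed limma at the adjusted threshold, with 0 at an unadjusted p below 0.05 and 0 called by edgeR or DESeq2. Without the filter of a mean of 10, 1 gene of the list passed. Their median log2 fold change was 0.0029. HIF1A, the oxygen-regulated factor subunit, was between 4359 and 6631 normalised counts in the controls and between 4119 and 6705 in the KO libraries. VHL, which marks the factors for degradation, had a log2 fold change of -0.25 (adjusted p = 0.46). EGLN3, an oxygen sensor, was at 1.61, 22.4, 3.22 and 6.59 normalised counts in the controls and at 0 in all 4 KO libraries, under the filter of a mean of 10. Of 14 other hypoxia target genes 13 were tested, 1 rose and 1 fell, against 8.65% and 9.56% of all tested genes. Their median log2 fold change was -0.02. PFKFB3, a regulator of glycolysis, rose (log2 fold change 1.05, adjusted p = 0.0014), and the glucose transporter SLC2A1 fell (log2 fold change -0.51, adjusted p = 0.023). With the replicate block PDK1, KDM3A and PFKFB4 passed as well, all lower. That gave 1 of 13 higher and 4 lower, against 14.2% and 14.6% of all tested genes. Without the block the count of 2 was 1 when control replicate 1, 2 or 4 or KO replicate 1 or 4 was left out. PDK1 had the replicate order of VEGFA, at 855, 3023, 882 and 2682 in the controls and 841, 1833, 404 and 1363 in the KO libraries.

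**Figure D4:**
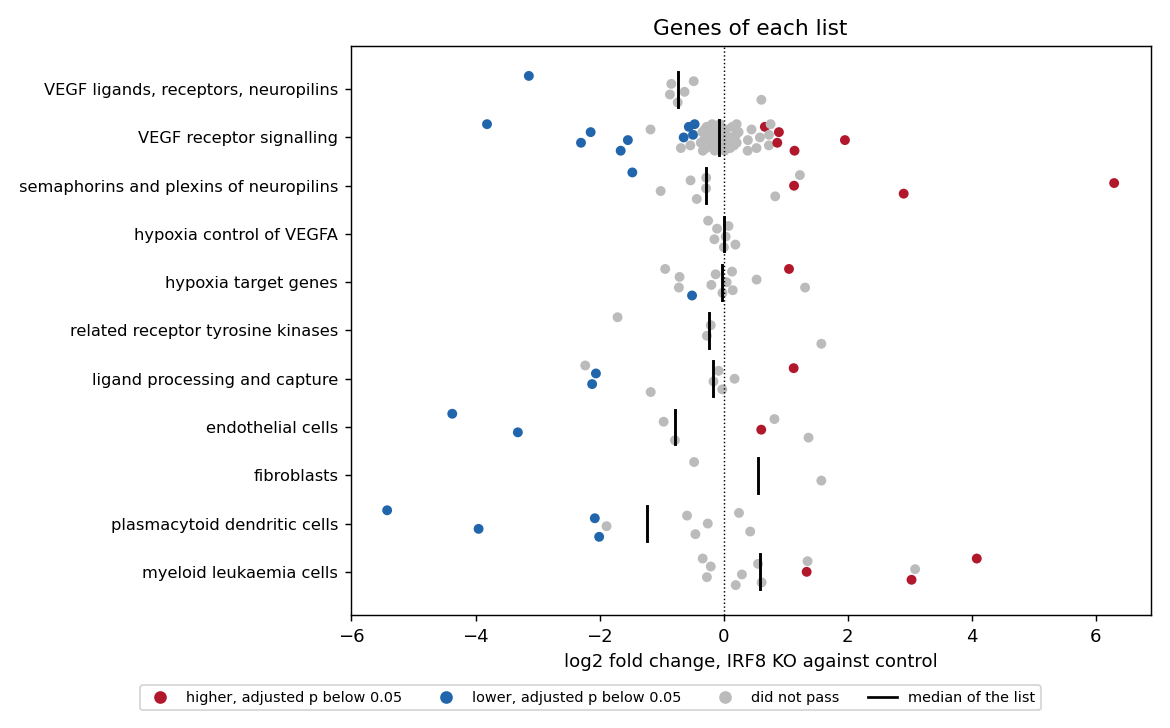
Log2 fold change (horizontal axis) of each tested gene of the 9 VEGF family genes and of 10 gene lists, in red or blue where the limma adjusted p was below 0.05 and in grey otherwise, with the median of each list as a black line. The semaphorins reach 6.29, and the genes of the hypoxia control list stay close to 0.

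Proteases and matrix proteins that process or hold VEGF ligands were not uniform. Of 12 such genes 9 were tested, 1 rose and 2 fell, with a median log2 fold change of -0.17. The shares over all tested genes were 8.65% higher and 9.56% lower, or 14.2% and 14.6% with the replicate block. With the replicate block 1 rose and 3 fell, since ADAMTS14, a protease related to that which activates VEGFC, passed as well (log2 fold change -2.23, blocked limma adjusted p = 0.010, lower in 4 of 4 pairs). FURIN, a protease that cleaves the VEGFC precursor, rose to 204% of the control mean (log2 fold change 1.13, SE 0.29, limma adjusted p = 0.029), with values between 3375 and 8519 in the controls and between 8640 and 11905 in the KO libraries. PCSK5, a related protease, fell to 23.3% (log2 fold change -2.06, adjusted p = 0.0040). MMP9, a matrix protease known to release VEGFA, fell to 28.0% (-2.12, adjusted p = 0.043), and it lies on chromosome 20, relative to whose median it was at -1.19 (exact two-sided permutation p = 0.11). The count of 3 was 1 in edgeR, and also 1 without control replicate 1 or 3 or KO replicate 3 or 4. Other type III receptor tyrosine kinases, the relatives of the VEGF receptors, had 4 of 5 genes tested and a median log2 fold change of -0.24. None of these passed, since 0 had an adjusted p below 0.05 in limma, edgeR or DESeq2, and 1 had an unadjusted p below 0.05 in limma. Without the filter of a mean of 10, 1 gene of this list passed. FLT3 had a log2 fold change of -0.21 (adjusted p = 0.48), CSF1R -0.27 (0.46), KIT -1.71 (0.11) and PDGFRB 1.57 (0.31).

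Since most of the family is known from vessels, and NRP1 also from plasmacytoid dendritic cells, markers of other cell types were set beside it. Of 12 endothelial genes 7 were tested, 1 rose and 2 fell, against 8.65% and 9.56% of all tested genes. Their median log2 fold change was -0.79. Their summed level was between 1971 and 3097 normalised counts in the controls and between 2031 and 3653 in the KO libraries. The defining genes CDH5, EMCN and ROBO4 were between 0 and 3.22 in every library. MMRN2 was between 209 and 1420 in the controls and between 6.39 and 52.8 in the KO libraries (log2 fold change -4.38, limma adjusted p = 0.0057), and TIE1, a receptor kinase of vessels, fell too (-3.32, adjusted p = 0.024). EGFL7 rose (0.60, adjusted p = 0.0088). Of 6 fibroblast genes 2 were tested, with a median log2 fold change of 0.55. None passed, with 0 called by limma, edgeR or DESeq2 and 0 at an unadjusted p below 0.05 in limma, and with COL3A1 at 0 in every library. Their sum was between 32.2 and 87.1 in the controls and between 22.4 and 421 in the KO libraries, and its highest value was from PDGFRB in KO replicate 2.

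Of 12 genes of plasmacytoid dendritic cells 10 were tested, 0 rose and 4 fell, against 8.65% and 9.56% of all tested genes. Their median log2 fold change was -1.24. None was higher at an unadjusted p below 0.05 in limma, edgeR or DESeq2. BLNK fell most (-5.42, limma adjusted p = 0.00028), followed by TLR7 (-3.95), SPIB (-2.08) and IL3RA (-2.01). Their summed level was between 8813 and 11815 normalised counts in the controls and between 3797 and 7553 in the KO libraries, while the defining surface marker CLEC4C was at 0.80 in 1 control library and at 0 in the others. Of 12 myeloid leukaemia genes all 12 were tested and 3 rose, MPO (4.08), ITGAM (3.03) and PTPRC (1.34), against 8.65% of all tested genes. Their median log2 fold change, over all 12, was 0.58. Their sum was between 98088 and 106497 in the controls and between 122422 and 358928 in the KO libraries, and LYZ alone was at 248604 in KO replicate 1. With the replicate block 5 of the 12 rose and 1 fell, against 14.2% and 14.6% of all tested genes. The part of these genes in the neuropilin values was not tested.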

How the data were processed

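RNA from 4 control and 4 IRF8 KO replicates of MV4-11 was analysed. Per the study's methods, the authors mapped reads (RNA-Star, GENCODE annotation), counted them per gene with featureCounts and deposited the signal per gene, read counts divided by the DESeq2 size factor of each library. The submitters' processing notes list hg19 and hg38 without saying which served the RNA-Seq, and no source used here gives the strand setting. Deposited columns of the authors' own comparison were not used. All columns were mapped to a library (0 left out), with control columns, named as wild type, matched by number. Of the values, 100% were whole reads within 0.01, and 2197 of 19590 genes were 0 in every library.

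Values were tested as log2(normalised count + 1) with limma 3.58.1 in R 4.3.3 (trended, robust prior variance), over 13110 genes whose mean reached 10, with Benjamini-Hochberg adjustment over all of them. A gene passed at an adjusted p below 0.05. The log2 values of the groups were also compared by exact permutation, two-sided. The scripts were tested on simulated counts. Alternatives covered pseudocounts of 0.5 and 5, no filter or a mean of at least 100, upper quartile and quantile scaling, no trend, library weights, DESeq2 1.42.0 and edgeR 4.0.16 run on recovered reads, leaving out each library, and the replicate number as a block. Block fits with edgeR, DESeq2 or without a replicate number were chosen after seeing the data.

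As a check of pairing, each library's deviation from its group mean was correlated across genes with that of its same-numbered partner, which gave 0.37, 0.48, 0.45 and 0.50. The numbers were treated as pairs in the blocked fits, although no source says what a number marks. Replicates 1 and 3 also deviated together (0.41 and 0.47), above their same-numbered values of 0.37 and 0.45. Replicates 2 and 4 did so too (0.41 and 0.40), below their same-numbered 0.48 and 0.50. The check therefore cannot tell same-numbered pairs from blocks of replicates 1 with 3 and 2 with 4.

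The named genes are the 9 members, IRF8, the called genes of each list, at most 8 a list by size of change, and the 2 genes most like each called member. PIK3CB, PIK3R1, PIK3CD, AKT1 and NFATC3, which are called but beyond those 8, and all uncalled list genes were added with their values known. Of the called genes of the lists, 1 is not reported here. The members and lists were chosen with earlier results of these data known. Chromosomes came from RefSeq (GRCh38.p14), which matched 13010 of the 13110 genes by symbol. Levels were not compared between genes, since transcript lengths were not used here, so the planned order of levels and sums per length were not computed. A limit of 3 reads stands for what a count of 0 allows. It covers counting error only.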

Additional observations from a re-analysis of the deposited data

Results flagged for a closer look

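Among 90 groups of 4 libraries examined on the log2 scale, for 45 named genes, 3 had a library far from the others, where chance gives about 1 in 20. KDR was at 0.956 normalised counts, a single read, in KO replicate 2 and at 0 in the other KO libraries. With the others at 0, any read in 1 library gives this flag, so the chance rate does not apply to KDR. PIK3R1 was at 3281 normalised counts in control replicate 4, below the other controls, which were between 3547 and 3580. FURIN was at 8640 in KO replicate 1, below the other KO libraries, which were between 11283 and 11905.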

How the results depend on the processing

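NRP2 passed the threshold in every fit that tested it, with a log2 fold change between -3.51 and -2.57 when 1 library was left out. It was not tested at a mean of at least 100, where 0 members passed. FLT1, FLT4 and PGF passed in no fit. When 1 library was left out, FLT1 ranged from -1.14 (without KO replicate 3) to -0.57 (without KO replicate 1), FLT4 from -0.98 to -0.23 and PGF from -0.89 to -0.04, with these extremes from the same libraries. The replicate block changed the call of VEGFA (-0.84, adjusted p = 0.0058) and VEGFB (0.61, 0.024), and of no other member. With the block, VEGFA was -0.85 in edgeR and -0.84 in DESeq2, and -1.01, -0.71, -0.82 and -0.84 without replicate 1, 2, 3 or 4. VEGFB was 0.60 and 0.61 in these tools, and between 0.53 and 0.72 without 1 number, where it passed only without replicate 4 (adjusted p between 0.036 and 0.092). Without the block, VEGFB passed in DESeq2 (0.64) and ranged from 0.52 to 0.80 when 1 library was left out. VEGFA ranged from -1.35 to -0.28. NRP1 passed with upper quartile scaling (-0.75), quantile normalization (-0.76), library weights (-0.81), DESeq2 (-0.75, and -0.74 with the block). It ranged from -0.90 to -0.61 when 1 library was left out, and from -1.04 to -0.54 in the block without 1 number.

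The count of members that passed was 2 with upper quartile scaling, quantile normalization or library weights, 3 with DESeq2, 3 with the block in limma and edgeR, 4 with the block in DESeq2, between 1 and 2 when 1 library was left out (2 without control replicate 2, KO replicate 2 or KO replicate 4), and between 2 and 3 in the block without 1 number. Over all genes 2387 passed, 2388 with upper quartile scaling, 2554 with quantile normalization, 2870 with library weights, 3402 with DESeq2, 3769 with the block, 3682 and 4487 with the block in edgeR and DESeq2, and between 1668 and 2459 when 1 library was left out.

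With the block the count for VEGF receptor signalling was 22 in limma and edgeR and 25 in DESeq2, for hypoxia target genes 5 in limma, edgeR and DESeq2, and for myeloid leukaemia cells 6 in all 3. It was 5 in edgeR for ligand processing, and in DESeq2 1 for related receptor kinases, 1 for fibroblasts and 7 for plasmacytoid dendritic cells. Without the block, ligand processing had 1 in edgeR, hypoxia targets 4 in DESeq2, semaphorins 2 at a mean of at least 100, and with no filter hypoxia control and related receptor kinases had 1 each. When 1 library was left out, VEGF receptor signalling ranged from 9 to 14, hypoxia targets from 1 to 2 and ligand processing from 1 to 3. In the block without 1 number the ranges were 10 to 17 for VEGF receptor signalling, 2 to 4 for hypoxia targets, 0 to 1 for related receptor kinases and for fibroblasts. The cause of these changes was not tested. Levels by coding length were not run, since no transcript length was used. Depth limits VEGFC, KDR, PGF, FLT4 and NRP2 in the KO libraries.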
